A study of Mus musculus with 16 samples.

Results

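The myelin genes of oligodendrocytes described here are Mog, Mag, Mbp, Mobp, Cnp, Cldn11, Ugt8a, Mal and Opalin. They were followed in total RNA from the striatum of male DBA/2J (DBA/2JRccHsd) and A/J (A/JOlaHsd) mice aged 7 to 8 weeks. Their probe sets are those that name 1 of these genes and no other gene in the array's annotation, which gave 17 of the 45037 probe sets tested and 9 of the 17097 genes named. Expression was measured on Affymetrix mouse arrays that carry perfect-match probes only. There were 4 arrays in each of 4 groups, labelled as biological replicates. The groups were DBA/2J mice given risperidone, DBA/2J control mice, A/J mice given risperidone and A/J control mice. Risperidone, an antipsychotic that blocks dopamine and serotonin receptors, was injected intraperitoneally at 1 mg/kg once daily for 3 days. Control mice are labelled untreated, while the protocol common to all samples names saline. All values are log2 levels per probe set, and levels of different probe sets are not comparable with each other.

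Myelin is the membrane that oligodendrocytes wrap around axons in the central nervous system, and it lets axons conduct impulses quickly. Its compact layers are held together by adhesive proteins and are unusually rich in galactolipids. Mature oligodendrocytes switch on the genes for these proteins and lipid enzymes as a group during development, under factors that include SOX10 and MYRF. In the striatum, myelinated axons run in bundles of the internal capsule, next to regions of projection neurons that hold less myelin.

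Promoters of the myelin genes are shown first. Whether their motifs have a part in the shared deviation between arrays, described further on, was not tested. From RefSeq (GRCm38.p6), 10 promoters of 300 bases, from 250 before to 50 after the start, were taken for 8 of the 9 genes. Mbp was left out of this search, so the counts of genes and promoters below do not cover it. The promoters were searched on both strands for ACAAAG (a core bound by SOX factors), CTGGCAC (a form of the MYRF motif) and CAGCTG (an E-box, a site type of basic helix-loop-helix factors). ACAAAG was found in 5 of the 10 promoters (4 of the 8 genes), where 18.7% of all 32851 RefSeq promoters hold it. CTGGCAC was found in 4 of the 10 (3 of the 8 genes), where 5.01% of all promoters hold it. CAGCTG was found in 1 of the 10 (1 of the 8 genes), where 16.3% hold it. The promoters of the first 2 Mag starts overlap and share their matches. The 5 promoters below are 1 for each of the 4 genes with a match, the first of 3 starts in the case of Mag, and that of Mog, the gene with the widest difference between strains, in which none of the 3 motifs was found. Capitals mark a match on either strand, so CTTTGT is ACAAAG on the other strand and GTGCCAG is CTGGCAC on the other strand. No match of 1 motif overlapped a match of another in them. A match is a description of the letters, not a site of binding.
Mag: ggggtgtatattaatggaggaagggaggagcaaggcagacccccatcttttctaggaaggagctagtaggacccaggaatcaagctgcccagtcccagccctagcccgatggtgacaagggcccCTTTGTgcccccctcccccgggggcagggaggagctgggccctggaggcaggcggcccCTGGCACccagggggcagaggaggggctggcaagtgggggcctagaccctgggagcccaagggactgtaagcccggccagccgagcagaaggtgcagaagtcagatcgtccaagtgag
Cnp: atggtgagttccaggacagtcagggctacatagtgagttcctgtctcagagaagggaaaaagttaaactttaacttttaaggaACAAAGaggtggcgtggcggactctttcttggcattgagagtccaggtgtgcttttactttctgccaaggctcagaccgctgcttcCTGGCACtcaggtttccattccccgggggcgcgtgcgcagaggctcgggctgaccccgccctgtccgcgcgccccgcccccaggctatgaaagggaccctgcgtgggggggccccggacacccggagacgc
Opalin: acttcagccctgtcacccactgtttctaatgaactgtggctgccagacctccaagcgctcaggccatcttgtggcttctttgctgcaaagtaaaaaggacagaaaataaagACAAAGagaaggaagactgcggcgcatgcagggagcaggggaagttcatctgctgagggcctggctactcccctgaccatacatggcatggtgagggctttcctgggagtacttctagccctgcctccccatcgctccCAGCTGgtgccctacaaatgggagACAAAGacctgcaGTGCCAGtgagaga
Mobp: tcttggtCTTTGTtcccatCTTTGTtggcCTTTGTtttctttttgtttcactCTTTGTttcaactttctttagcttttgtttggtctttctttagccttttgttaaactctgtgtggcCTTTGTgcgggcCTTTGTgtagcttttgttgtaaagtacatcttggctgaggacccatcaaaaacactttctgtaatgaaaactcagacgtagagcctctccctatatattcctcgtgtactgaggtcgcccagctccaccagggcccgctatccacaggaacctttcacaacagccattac
Mog: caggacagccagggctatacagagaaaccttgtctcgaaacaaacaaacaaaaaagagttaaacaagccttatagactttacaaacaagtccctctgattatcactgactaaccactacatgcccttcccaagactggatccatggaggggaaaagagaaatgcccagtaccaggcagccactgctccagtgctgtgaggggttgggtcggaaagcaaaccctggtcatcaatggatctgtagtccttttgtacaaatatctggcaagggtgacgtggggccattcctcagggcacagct

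In the Mag and Cnp promoters shown, ACAAAG lies farther from the start and CTGGCAC nearer to it, with ACAAAG on opposite strands. In Mag the matches lie 126 to 121 and 68 to 62 bases before the first start (chr7:30914814-30915113, minus strand). From the second Mag start the distances are 67 to 62 and 9 to 3 bases, and the promoter of the third start holds no match. In Cnp they lie 167 to 162 and 81 to 75 bases before it (chr11:100574689-100574988, plus strand). The Mobp promoter (chr9:120149492-120149791, plus strand) holds 6 matches of ACAAAG and none of the other motifs. In Opalin (chr19:41077064-41077363, minus strand) all 3 motifs occur, with CAGCTG across the start itself. The Mog promoter shown is chr17:37023349-37023648 on the minus strand.

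Some arrays stood apart. On strain marker probe sets chosen without the myelin genes, the share of DBA/2J signal was 87.6% to 102% in DBA/2J risperidone arrays and 96.1% to 103% in DBA/2J control arrays. It was 27.9%, 36.2%, 0.584% and 39.1% in A/J risperidone replicates 1 to 4, against -2.3% to 0.944% in A/J control arrays, so 3 of the 4 A/J risperidone arrays carry strain markers that go against their label. DBA/2J control replicate 4 had a median correlation of 0.976 with the other arrays over all probe sets, while that median was 0.988 to 0.993 for each other array. Of the striatal projection neuron markers, 8 of 11 were measured. They averaged 4.05 (the dopamine receptor gene Drd2) to 7.77 (the phosphodiesterase gene Pde10a) over all arrays, and the 6 cortex markers measured averaged 7.69 (Rorb) to 9.78 (Slc17a7). These levels belong to different probe sets and do not give the makeup of the tissue. In bulk RNA, fewer oligodendrocytes and less RNA per oligodendrocyte cannot be told apart.

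In control mice, probe sets of several myelin genes had lower levels in DBA/2J than in A/J striatum, that of Mog most of all. Mog and Mag rest on 1 probe set each. Whether the probes match the sequences of both strains equally well was not tested. Mog, Mag, Mobp and Ugt8a each had a probe set that passed, with log2 differences of -1.42, -0.86, -0.94 and -0.69, while Opalin, Cldn11 and Mbp differed by less and did not pass. In all, 4 of 17 probe sets passed at an adjusted p under 0.05 (limma over all 45037 probe sets), all lower, where 3.87% of all probe sets passed in either direction. The difference was below 0 for 16 of 17 probe sets and for all 9 genes by their probe set of highest mean, against 46.2% of all probe sets. The 17 probe sets belong to 9 genes that deviated together between arrays, as described further on. Counts of members, here and below, are therefore not counts of independent results. The median over the 9 genes was -0.55, and over all probe sets 0.01.

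Mog encodes myelin oligodendrocyte glycoprotein, which sits on the outermost face of the sheath (chromosome 17, 37010740 to 37023398, minus strand). Its log2 level in DBA/2J was 6.16, 6.47, 6.41 and 6.86 in risperidone arrays and 6.43, 6.35, 6.28 and 5.69 in control arrays. In A/J it was 6.98, 6.85, 7.32 and 7.15 in risperidone arrays and 7.64, 7.69, 7.93 and 7.17 in control arrays. All DBA/2J control arrays lay below all A/J control arrays. The difference of -1.42 ± 0.18 (SE, n = 4 each) is 2.68-fold (adjusted p = 6.28e-05). The order of the group means was A/J control (7.61 ± 0.32 SD), A/J risperidone (7.08 ± 0.20), DBA/2J risperidone (6.48 ± 0.29) and DBA/2J control (6.19 ± 0.34). None of the 3 neighbouring pairs in that order passed the test (adjusted p = 0.695, 0.174 and 0.565).

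Mag encodes myelin-associated glycoprotein, which faces the axon from the innermost layer (chromosome 7, 30899175 to 30914922, minus strand). In DBA/2J its level was 6.08, 6.21, 6.52 and 7.17 in risperidone arrays and 6.55, 6.37, 6.10 and 5.62 in control arrays. In A/J it was 6.54, 6.27, 6.74 and 6.76 in risperidone arrays and 7.04, 6.90, 7.49 and 6.64 in control arrays. The control groups of the strains did not overlap, while the risperidone groups did. The difference in control mice was -0.86 ± 0.23 (adjusted p = 0.0389). Mag no longer passed without A/J control replicate 1, 2 or 3 (adjusted p = 0.0871, 0.0618 and 0.142), without A/J risperidone replicate 1 (0.0517) and without DBA/2J control replicate 3 or 4 (0.0734 and 0.12).

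Mobp encodes a small basic protein of the cytoplasmic face of the membrane and has 4 probe sets (chromosome 9, 120149742 to 120181488, plus strand). Its probe set of second-highest mean had 8.15, 8.00, 8.00 and 7.69 in DBA/2J control arrays, against 8.88, 8.94, 9.26 and 8.51 in A/J control arrays. The groups did not overlap, and the level of this probe set was 1.92-fold lower in DBA/2J (-0.94 ± 0.17, adjusted p = 0.00324). The other 3 probe sets of Mobp, among them the one of highest mean, differed by -0.55, -0.45 and -0.40 and did not pass (adjusted p = 0.0797, 0.226 and 0.239).

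Ugt8a encodes the enzyme that makes galactosylceramide, a main lipid of myelin (chromosome 3, 125865272 to 125938682, minus strand). Its probe set of lower mean had 6.23, 6.39, 6.33 and 6.21 in DBA/2J control arrays, against 6.94, 7.02, 7.34 and 6.60 in A/J control arrays. The groups did not overlap, and the level of this probe set was 1.61-fold lower in DBA/2J (-0.69 ± 0.15, adjusted p = 0.00992). Its probe set of highest mean had 7.65, 7.50, 7.19 and 6.68 in DBA/2J control arrays, against 8.16, 8.07, 8.27 and 7.50 in A/J control arrays. These groups overlapped, since A/J replicate 4 lay no higher than DBA/2J replicates 1 and 2, and the difference of -0.75 ± 0.22 did not pass (adjusted p = 0.0664).

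Cnp encodes a cyclic nucleotide phosphodiesterase of the cytoplasmic channels in myelin. Its probe set of highest mean had 8.51, 8.60, 8.62 and 8.04 in DBA/2J control arrays, against 8.97, 9.04, 9.56 and 8.97 in A/J control arrays. The groups did not overlap, and the difference of -0.69 ± 0.20 just missed the threshold (adjusted p = 0.0544). Mbp encodes myelin basic protein, which joins the cytoplasmic faces of the compact layers. Its probe set of highest mean had 11.46, 11.52, 11.49 and 11.56 in DBA/2J control arrays, against 11.74, 11.81, 12.05 and 11.69 in A/J control arrays. The strains did not overlap here either, yet the difference was small and did not pass (-0.32 ± 0.13, adjusted p = 0.198).

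Mal, a proteolipid of membrane transport to myelin, differed by -0.48 ± 0.18 and -0.57 ± 0.18 on its 2 probe sets (adjusted p = 0.152 and 0.0885). Cldn11, the tight-junction protein between the layers of the sheath, differed by -0.25 ± 0.15 (adjusted p = 0.391). Opalin, a transmembrane glycoprotein of oligodendrocytes, had 7.45, 7.42, 7.34 and 7.56 in DBA/2J control arrays, against 7.55, 7.49, 7.81 and 7.27 in A/J control arrays. Its groups overlapped fully, with a difference of -0.09 ± 0.13 (adjusted p = 0.775). The second Opalin probe set lay between 2.58 and 2.95 on every array and is the 1 member that was higher in DBA/2J control arrays (0.10 ± 0.09, adjusted p = 0.57).

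Of the 17 probe sets, 9 had all DBA/2J control arrays below all A/J control arrays, where 4.42% of all probe sets did. None lay entirely above, and the share of all probe sets in that direction was not counted. The count of 4 that passed was 8 without A/J control replicate 4 and 8 without DBA/2J risperidone replicate 4. Without DBA/2J control replicate 4 and DBA/2J risperidone replicate 1 together it was 5, and without A/J risperidone replicates 1, 2 and 4 it was 3. The thalamus markers also moved with strain. All 8 of 8 were lower in DBA/2J control mice, of which Calb2 and Ntng1 passed (-0.94 and -0.60), and their mean level was 5.74 to 5.86 in DBA/2J control arrays and 5.81 to 7.10 in A/J control arrays. Of the microglial markers 8 of 8 were lower as well, of which the receptors Cx3cr1 and P2ry12 passed (-1.05 and -0.38), while 5 of 10 astrocyte markers were lower and Gfap passed (-0.42). Of the striatal neuron markers 6 of 8 were lower, and Ppp1r1b and Pde10a passed (-0.61 and -0.43). The part of these markers in the strain difference of the myelin genes was not tested.

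**Figure D1:**
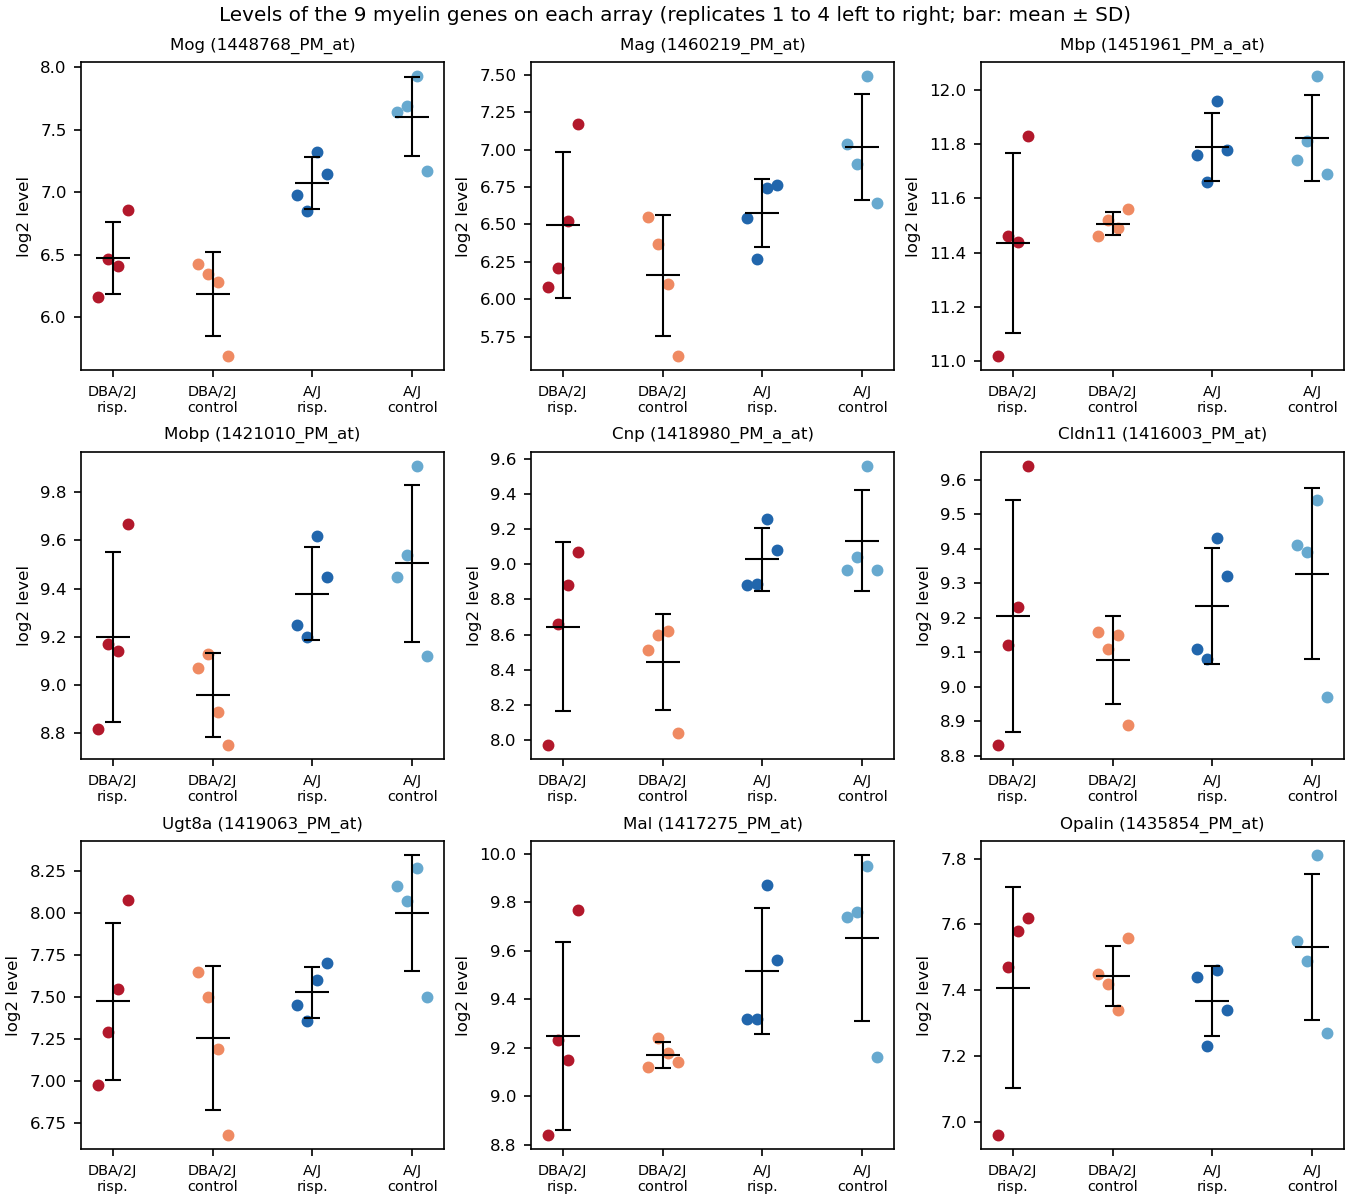
Log2 level (y axis) of each myelin gene's probe set of highest mean in DBA/2J risperidone, DBA/2J control, A/J risperidone and A/J control arrays (x axis). Points are arrays, replicates 1 to 4 from left to right within a group, and bars are the mean ± SD of 4 arrays. Mog shows the widest gap between strains, 6.19 in DBA/2J control arrays against 7.61 in A/J control arrays, while the Opalin groups overlap.

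Among the arrays labelled as mice given risperidone, the strains lay closer. Of these, A/J replicates 1, 2 and 4 held 27.9%, 36.2% and 39.1% DBA/2J signal on the strain markers. The part of that signal in the narrower difference was not tested. Mog averaged 6.48 in DBA/2J and 7.08 in A/J (-0.60 ± 0.18, adjusted p = 0.174), and the arrays overlapped by a narrow margin, with 6.86 the highest in DBA/2J and 6.85 the lowest in A/J. Mag averaged 6.50 in DBA/2J and 6.58 in A/J, a difference of -0.08 ± 0.23 (adjusted p = 0.953), and its groups overlapped over most of their range. Mbp averaged 11.44 in DBA/2J and 11.79 in A/J (-0.35 ± 0.13, adjusted p = 0.333).

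At an unadjusted p under 0.05 there were 4 of the 17 probe sets and 4247 of all. Of the 17, 0 passed in this comparison, against 0.782% of all probe sets. With array weights 1 passed, which was Mog (-0.58, adjusted p = 0.049). The difference was below 0 for 15 of 17, against 47.9% of all probe sets, with a median over the genes of -0.18. No myelin probe set had all DBA/2J arrays below all A/J arrays, where 3.53% of all probe sets did. Without A/J risperidone replicates 1, 2 and 4, which leaves 1 A/J risperidone array, the median was -0.42 and Mog differed by -0.85. The lone array is assumed there to vary like the other groups. Without DBA/2J risperidone replicate 1 and DBA/2J control replicate 4 the median was -0.05.

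**Figure D2:**
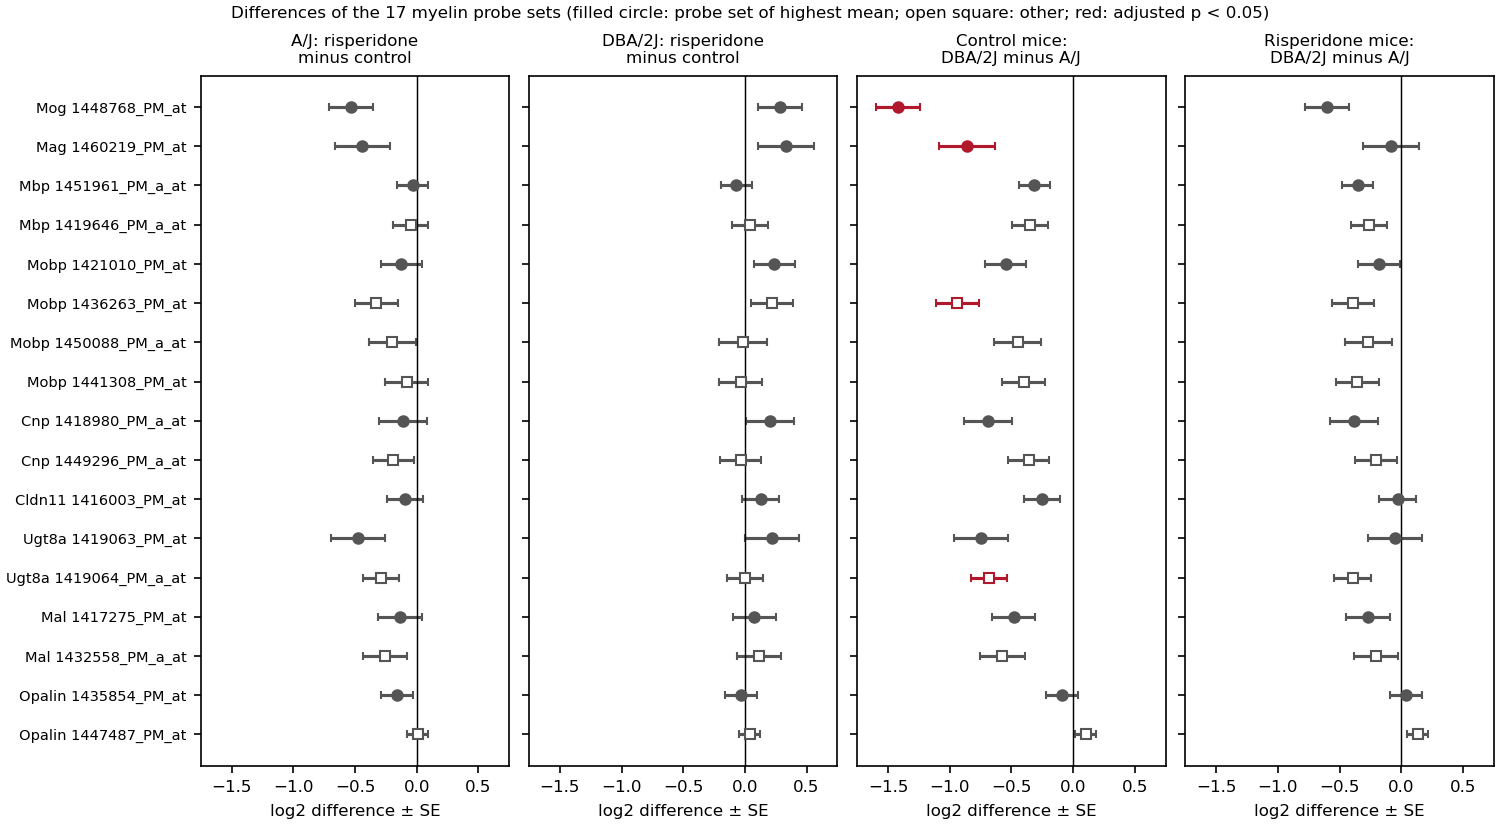
Log2 difference ± SE (x axis) of each of the 17 myelin probe sets (rows) in 4 comparisons of 4 arrays each (panels). Filled circles are the probe set of highest mean of a gene, open squares its other probe sets, and red marks an adjusted p under 0.05. The 4 red points lie among DBA/2J minus A/J in control mice, from -1.42 for Mog to -0.69 for Ugt8a.

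Risperidone gave no call among the myelin genes in either strain. In A/J, 0 of 17 probe sets passed and 0% of all probe sets did, with 2 of 17 and 2483 of all at an unadjusted p under 0.05. The difference was below 0 for 16 of 17, against 49.3% of all probe sets, with a median over the genes of -0.14. These signs are not independent of each other. Mog averaged 7.08 after risperidone and 7.61 in control mice (-0.53 ± 0.18, adjusted p = 0.695), with 1 risperidone array, at 7.32, inside the control range. Ugt8a averaged 7.53 after risperidone and 8.00 in control mice on its probe set of highest mean (-0.47 ± 0.22, adjusted p = 0.897), and Mag 6.58 and 7.02 (-0.44 ± 0.23, adjusted p = 0.929). Mbp was nearly level between the groups, at 11.79 after risperidone and 11.82 in control mice (-0.03 ± 0.13). No probe set had all risperidone arrays below all control arrays, where 2.08% of all probe sets did. With only replicate 3 of the A/J risperidone arrays kept, the median was 0.10 and the differences of Mobp, Cnp, Cldn11, Mal and Mbp turned positive, while Mog kept -0.29.

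In DBA/2J, 0 of 17 probe sets passed, against 0.04% of all probe sets (18), and 0 had an unadjusted p under 0.05, against 4806 of all. Here 12 of 17 differences were above 0 and 5 below, where 50.8% of all probe sets were below 0, with a median over the genes of 0.20. Mag averaged 6.50 after risperidone and 6.16 in control mice (0.34 ± 0.23, adjusted p = 0.6). Mog averaged 6.48 after risperidone and 6.19 in control mice (0.29 ± 0.18, adjusted p = 0.565). For both genes the ranges overlapped in part. Mbp (-0.07 ± 0.13) and Opalin (-0.04 ± 0.13) were nearly level. None of the 17 had all risperidone arrays above all control arrays, and the share of all probe sets that did was not counted. None had them all below either, where 2.51% of all probe sets did. Without DBA/2J risperidone replicate 4 the differences of Cldn11 and Mal were -0.02 and -0.10, and the median was 0.02.

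The drug effect was compared between the strains as the DBA/2J difference minus the A/J difference. It was above 0 for 16 of 17 probe sets and below 0 for 1, where 50.9% of all probe sets were below 0. Of the 17, 0 passed, with 0% of all probe sets passing. Mog had the widest value, 0.82 ± 0.25 (adjusted p = 0.392), from 0.29 in DBA/2J and -0.53 in A/J. Mag followed with 0.78 ± 0.32 (adjusted p = 0.499) and Ugt8a with 0.69 ± 0.31 (adjusted p = 0.526), while Mbp had -0.04 ± 0.18. At an unadjusted p under 0.05 there were 4 of 17 and 4140 of all. The median over the genes was 0.31, and 0.08 without A/J risperidone replicates 1, 2 and 4. The comparisons of strain and of drug share their arrays, so their values for 1 gene are not independent of each other.

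The myelin genes deviated together between arrays of the same group. After the mean of each group was taken away, all 36 pairs of the 9 genes correlated positively over the 16 arrays, with a median Pearson r of 0.82 and a range of 0.55 to 0.95. The pair Mag and Ugt8a was the highest at 0.95 and Mog and Opalin the lowest at 0.55. For comparison, the median correlation of a member with all probe sets lay between -0.0238 and -0.00283. Of all probe sets, 0.0444% to 0.393% correlated with a given member at or above the median of the 36 pairs. All arrays share 1 normalization.

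Deviations had the same sign across all 9 genes on several arrays. On DBA/2J risperidone replicate 4 all 9 lay above their group mean, by 0.21 to 0.68, and on replicate 1 of that group all 9 lay below it, by -0.68 to -0.32. In A/J risperidone mice all 9 lay above on replicate 3 and below on replicate 2. Replicate 3 was also the only array of that group whose strain markers matched its label. On replicates 1 to 4 the DBA/2J share was 27.9%, 36.2%, 0.584% and 39.1%, and the mean of the 9 genes deviated by -0.0853, -0.182, 0.196 and 0.0714. The part of the strain signal in these deviations was not tested. In A/J control mice all 9 lay above on replicate 3, by 0.21 to 0.47, and below on replicate 4, by -0.50 to -0.13. Between its lowest and highest array, the mean of the 9 genes spanned 0.89 in DBA/2J risperidone, 0.39 in DBA/2J control, 0.38 in A/J risperidone and 0.67 in A/J control arrays.

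**Figure D3:**
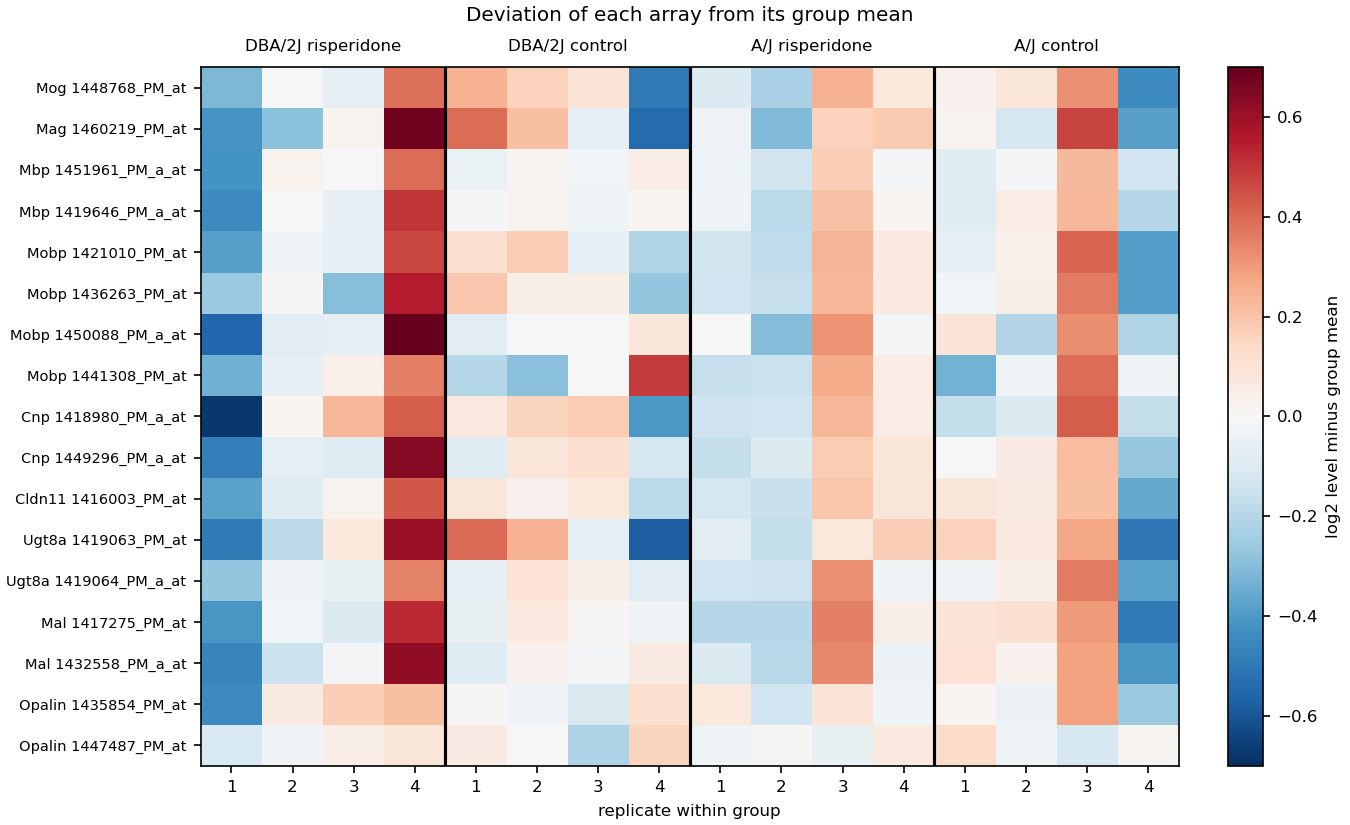
Deviation of each array from its group mean (colour, log2) for the 17 myelin probe sets (rows) on the 16 arrays (columns, replicates 1 to 4 of each group). On some arrays most rows take 1 colour, red on DBA/2J risperidone replicate 4 and blue on replicate 1, while other columns, such as A/J control replicate 2, are mixed.

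To test this against the whole array, the Mog level was entered beside the 4 group means in a limma fit of every other probe set. Of the 16 other myelin probe sets, 8 rose with Mog at an adjusted p under 0.05, against 93 of 45036 over all (0.207%). None had a negative slope that passed, where 25 of all did. The 8 were Mag, both Ugt8a probe sets, 2 of the 4 Mobp probe sets, and 1 each of Cnp, Cldn11 and Mal. Mag changed by 1.19 ± 0.15 per log2 unit of Mog (adjusted p = 0.00563) and Ugt8a by 1.17 ± 0.14 (adjusted p = 0.00474). The Mobp probe set of highest mean followed with 0.86 ± 0.12 (adjusted p = 0.00934) and Cldn11 with 0.73 ± 0.12 (adjusted p = 0.0192). Cnp (0.90 ± 0.18), Mal (0.81 ± 0.16) and the second Ugt8a probe set (0.66 ± 0.14) passed nearer the threshold, at adjusted p = 0.044, 0.0469 and 0.0491.

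Both Mbp probe sets did not pass (0.44 ± 0.15 and 0.58 ± 0.16, adjusted p = 0.176 and 0.109), nor did Opalin (0.38 ± 0.16, adjusted p = 0.253). For single genes, the correlation of deviations with Mog was r = 0.91 for Mag (Spearman rho = 0.88, exact within-group permutation p = 4.5e-05 and 0.00017, two-sided, not adjusted). For Opalin it was r = 0.55 (rho = 0.42, exact p = 0.057 and 0.14). DBA/2J control replicate 4 and A/J control replicate 4 had Mog farthest from its group, at -0.50 and -0.44. With those 2 left out r was 0.90 for Mag and 0.71 for Opalin, and for the Mbp probe set of highest mean it was 0.86 in place of 0.65.

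The count of 8 depended on single arrays. It was 2 without DBA/2J risperidone replicate 4, where 10 of all probe sets passed with a positive slope. It was 5 without A/J control replicate 3, without any 1 of the 4 A/J risperidone arrays, without DBA/2J control replicate 2 or 3, and without DBA/2J risperidone replicate 1 or 2. Without A/J risperidone replicates 1, 2 and 4 it was 2, where 5 of all passed, and without DBA/2J control replicate 4 and DBA/2J risperidone replicate 1 together it was 6. At least 1 myelin probe set passed in each of these settings, with smallest adjusted p values from 0.00204 to 0.0288, and the median r of the 36 pairs lay between 0.77 and 0.87 without each of the 16 arrays in turn.

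**Figure D4:**
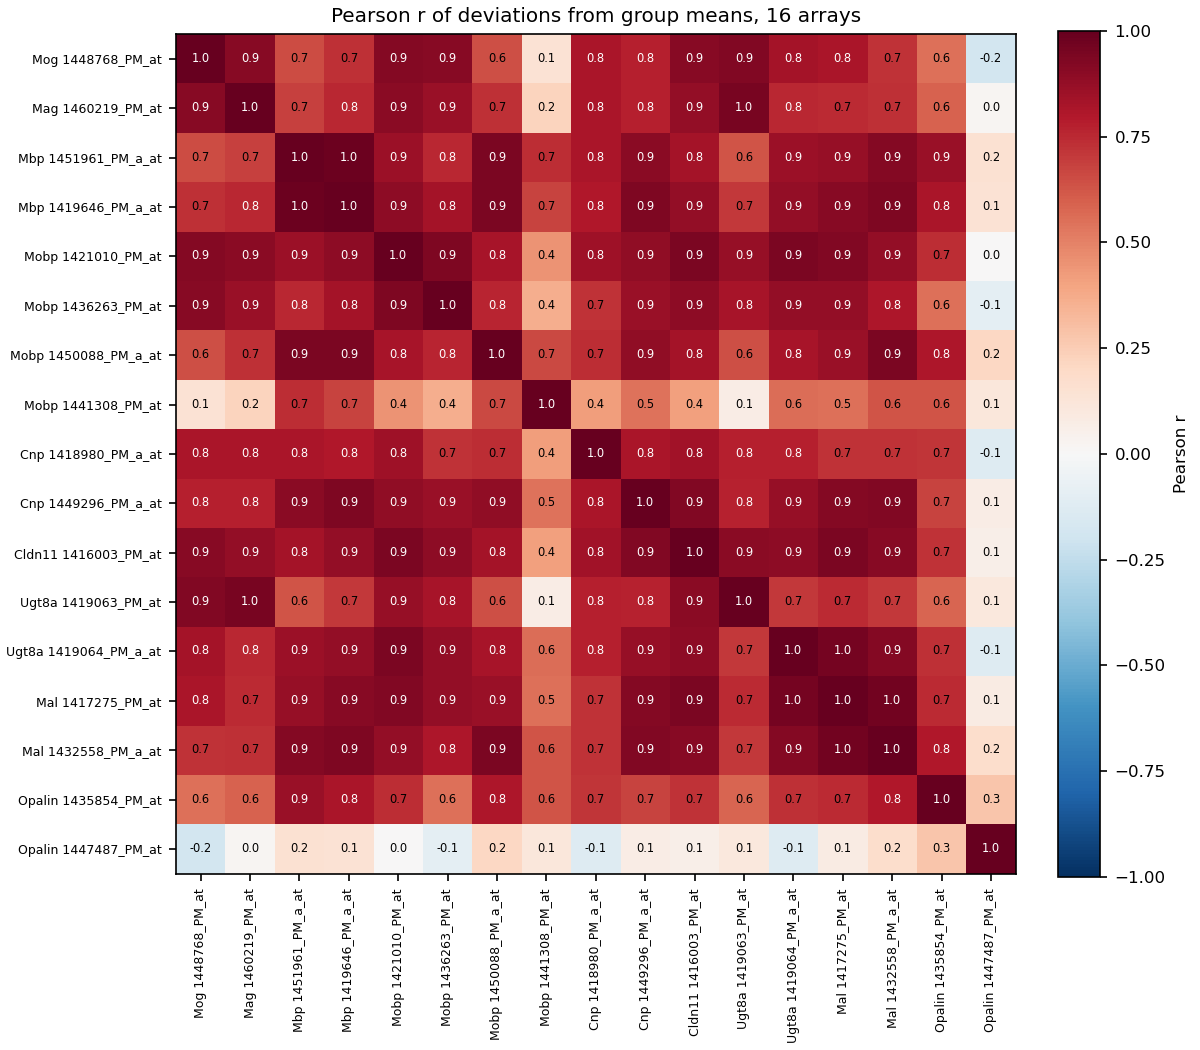
Pearson r (colour and printed value) of deviations from group means over 16 arrays for each pair of the 17 myelin probe sets (rows and columns). Most pairs lie well above 0, and the rows of the Mobp and Opalin probe sets of lowest mean are paler.

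Within single groups of 4 arrays, the median r of the 36 pairs was 0.95 in DBA/2J risperidone, 0.36 in DBA/2J control, 0.86 in A/J risperidone and 0.92 in A/J control. In DBA/2J control mice 23 of 36 pairs were positive and the lowest r was -0.92, while all 36 were positive in each of the other 3 groups. Replicate 4 of that group, which stood apart over all probe sets, had Mog, Mag and Ugt8a at 5.69, 5.62 and 6.68, the lowest of their group. The same array had Mbp at 11.56 and Opalin at 7.56, the highest of their group.

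Probe sets of 1 gene did not always move alike. The 2 Mbp probe sets correlated at 0.98 and the 2 Mal probe sets at 0.96, while the 2 Ugt8a probe sets correlated at 0.71 and those of Opalin at 0.27. Of the 4 Mobp probe sets, the one of lowest mean correlated with Mog at 0.14 and had 6.60, 6.51, 6.80 and 7.29 in DBA/2J control arrays, so that replicate 4 was its highest array and the lowest of the Mobp probe set of highest mean. The low Opalin probe set correlated with Mog at -0.19.

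Other genes of mature oligodendrocytes moved with these 9. Of 36 listed genes 30 were measured, and 7 rose with Mog (Tmem125, Qdpr, Trf, Car2, Ermn, Gpr62 and Ppp1r14a). Their mean level correlated with that of the 9 myelin genes at r = 0.96 (rho = 0.96) over the 16 arrays, and at 0.94 without DBA/2J risperidone replicates 4 and 1, the 2 arrays farthest from their group. Ermn is a cytoskeletal protein of oligodendrocytes, Car2 a carbonic anhydrase and Trf the iron carrier transferrin. Car2 had a slope of 0.59 on Mog (adjusted p = 0.0363) and Trf one of 0.98 (adjusted p = 0.0242). In control mice 28 of the 30 were lower in DBA/2J, with a median of -0.33, and 5 passed: Apod, a lipid-binding lipocalin (-0.61, adjusted p = 0.00882), Cmtm5 (-0.49), Gpr37 (-0.42), the tetraspanin Tspan2 (-0.65) and Gpr62 (-0.51).

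Enzymes of myelin lipids followed in part. All 11 were measured, their mean correlated with that of the 9 genes at r = 0.83 (rho = 0.80), and 2 rose with Mog, namely Fa2h, which hydroxylates fatty acids for galactolipids (slope 0.78, adjusted p = 0.0268), and Aspa, which frees acetate for lipid synthesis (0.76, adjusted p = 0.034). None of the 11 passed between strains in control mice, with 9 lower and a median of -0.09. Oligodendrocyte transcription factors, 9 of 11 measured, correlated at r = 0.65 (rho = 0.72), and 0 passed either test. Olig1 and Olig2 differed by -0.27 each between strains in control mice (adjusted p = 0.205 and 0.317), and Sox10 by 0.00. Precursor and newly formed oligodendrocyte genes, 12 of 14 measured, correlated at r = 0.22 (rho = 0.35), and at 0.63 without the 2 arrays farthest from their group, with 0 passing.

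Markers of other cells and regions were set beside these on the same arrays. Astrocyte markers, 10 of 10 measured, correlated with the mean of the 9 myelin genes at r = 0.86 (rho = 0.89), with a mean level of 8.33 to 8.59 over the 16 arrays, where the myelin genes ran from 7.96 to 9.17. Microglial markers correlated at 0.70, thalamus markers at 0.63, endothelial markers at 0.46 and striatal projection neuron markers at 0.44. Without the 2 arrays farthest from their group, these 4 values were 0.555, 0.555, 0.406 and 0.596, and that of astrocyte markers was 0.804. Cortex, blood and choroid plexus markers correlated at -0.28, -0.31 and -0.35, and at -0.15, -0.17 and 0.09 without the 2 arrays farthest from their group. Of the Schwann cell list 3 of 6 were measured, and their mean correlated at -0.23, and at 0.03 without those 2 arrays. Thalamus markers reached 7.10 on replicate 3 of A/J control mice, 6.59 on replicate 3 of A/J mice given risperidone and 6.51 on replicate 4 of DBA/2J mice given risperidone, the 3 highest of the 16 arrays and each the array with the highest mean of the myelin genes in its group. Tcf7l2 is in both the thalamus and the transcription factor lists. The part of these markers in the shared deviation of the myelin genes was not tested.

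**Figure D5:**
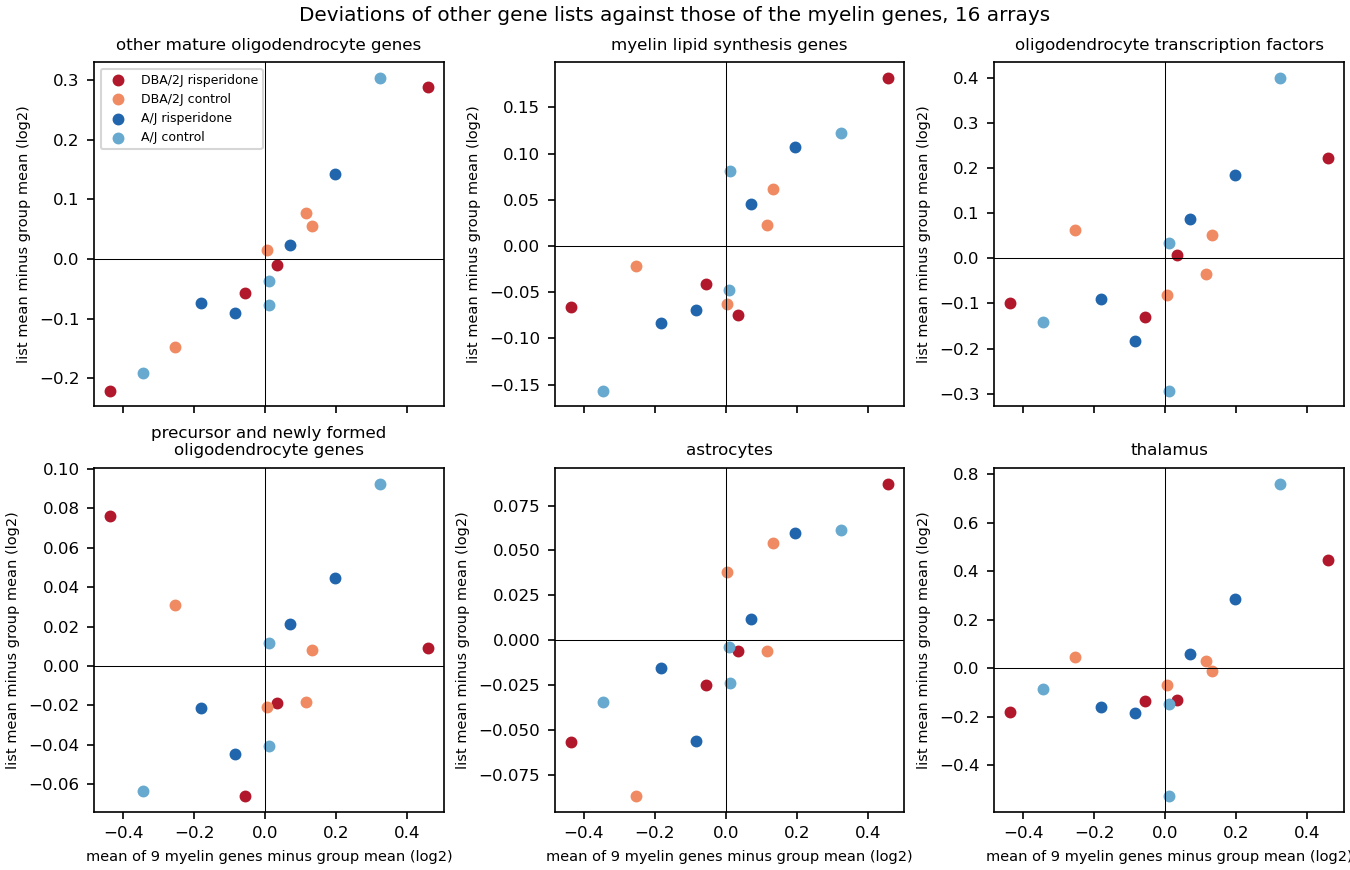
Deviation of the mean level of 6 gene lists (y axis, log2) against that of the 9 myelin genes (x axis, log2) on the 16 arrays, coloured by group. Other mature oligodendrocyte genes lie along a line (r = 0.96), precursor genes less so (r = 0.22, and 0.63 without the 2 arrays farthest from their group), and the y axes differ in range.

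Over the 9938 other genes with a mean level at or above the median probe set, those most like the mean deviation of the 9 myelin genes were Car2, Fa2h, Tmem125, Rhog, Ermn, Desi1, Evi2a, Adamts4, Aspa and Plekhb1, with r from 0.96 to 0.91 over 16 arrays. Rhog, Desi1 and Adamts4 stand in none of the lists above, while the other 7 do. Car2 and Adamts4 differed by 0.26 and 0.36 between strains in control mice, above 0 unlike the other 8, and neither passed (adjusted p = 0.294 and 0.297). The genes least like it were Wfs1 (r = -0.92), Rybp, Pnisr, Rnf126 and Nr4a2 (r = -0.83). None of these 15 genes passed between strains, and Wfs1 came nearest (-0.40, adjusted p = 0.058).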

How the data were processed

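Striatal RNA was hybridised to 16 arrays, 4 in each of 4 groups taken from the labels, which call them biological replicates. The deposited values are log2 levels that the authors made with RMA, per the submitters' processing notes (version not stated). RMA corrects background, equalises distributions and summarises probes, so levels are relative within this set of arrays, whose number limits the precision. After 104 array controls were left out, 45037 probe sets were tested with no filter on low values (limma 3.58.1 in R 4.3.3, lmFit and eBayes, Benjamini-Hochberg adjustment over all). One fit of 4 group means gave all comparisons. A second fit added the Mog level to them. Where 1 value stands for a gene, its probe set of highest mean over all arrays is used. Correlations use deviations from group means, with all 331776 within-group permutations for single genes (smallest p 3e-06).

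Strain markers were probe sets that differed by at least 1.5 between control arrays of the strains, other than the array scored, at a level of at least 7 in 1 strain and an adjusted p under 0.01. Genes were named from the platform annotation, where 28898 probe sets name 1 gene, 551 several and 15588 none. Outside the members, the text names the 10 genes most and the 5 least like the members' mean deviation, up to 4 genes of smallest p per list, and defining markers. Further list genes that passed a test were named after their values were seen. Members and lists were chosen with earlier results of these data known. The scripts were tested on simulated data. Figures were drawn with matplotlib 3.10.9. Alternatives covered normalization, a filter at the median level, array weights, a replicate block and arrays left out. List genes with no matched probe set were not analysed here.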

Additional observations from a re-analysis of the deposited data

Results flagged for a closer look

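Of 124 sets of 4 arrays examined (each myelin probe set and each list in each group, among others), 4 held an array far from the other 3 by Dixon's criterion, and chance flags about 1 in 20. The Cnp probe set of highest mean was 9.56 on A/J control replicate 3, while the other arrays of that group lay between 8.97 and 9.04. The mean level of the myelin lipid genes was 7.624 on DBA/2J risperidone replicate 4, with 7.367 to 7.401 on the other arrays of the group. Thalamus markers were at 6.505 on that same array, with 5.878 to 5.928 on the others. Choroid plexus markers were at 6.001 on DBA/2J risperidone replicate 1, the array on which all 9 myelin genes lay below their group mean, with 4.591 to 4.831 on the others of the group.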

How the results depend on the processing

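The strain difference of Mog in control mice passed in all 25 alternatives, between -1.25 and -1.57, as did the Mobp and Ugt8a probe sets that passed above, with adjusted p up to 0.0162 and 0.0439. Mag lost its call in 11 of the 25. Besides the arrays named above, these were array weights (0.0534), the replicate block (0.0572), the fit of only the groups compared (0.0644) and the 2 settings that omit arrays in doubt (0.0743 and 0.0981). The number of myelin probe sets that passed between strains in control mice was 3 to 8 with each array left out in turn, and between strains in risperidone mice it was 1 with array weights. The number that rose with Mog was 2 to 11 with each array left out, 5 after a second quantile normalization and 2 without the 3 A/J risperidone arrays. The cause was not tested. Replicate numbers are shared between groups. Over all probe sets, at most 2 of 4 correlations between same-numbered arrays were above 0.1 in a comparison. Their mean was 0.0255 to 0.0745, against -0.0247 to -0.00801 for arrays of different numbers, and was the higher in each comparison. In the first group of a comparison, 1 to 3 of 4 arrays correlated best with the same-numbered array. Whether same-numbered arrays share a source of variation was not tested. With the replicate number as a block, 4 probe sets passed between strains in control mice and 6 rose with Mog.

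Several values near 0 changed sign. Without the 3 A/J risperidone arrays, the risperidone difference in A/J was 0.102 for Cldn11, 0.218 for Mal, 0.125 for Cnp, 0.115 for Mobp and 0.138 for Mbp. Opalin in risperidone mice was -0.0525 between strains. Without DBA/2J control replicate 4 and DBA/2J risperidone replicate 1, the risperidone difference in DBA/2J was 0.153 for Opalin and 0.0867 for Mbp, and the strain difference in risperidone mice was 0.095 for Cldn11, 0.112 for Ugt8a and 0.0558 for Mag. Array weights gave Opalin 0.0203 in DBA/2J, and the replicate block gave the low Opalin probe set a Mog slope of 0.0245. With each array left out in turn, the risperidone difference in A/J ran from -0.185 to 0.0342 for Cnp, -0.253 to 0.01 for Mobp and -0.0892 to 0.0433 for Mbp. In DBA/2J it ran from -0.0175 to 0.252 for Cldn11, -0.0967 to 0.213 for Mal, -0.106 to 0.114 for Opalin and -0.201 to 0.0692 for Mbp. The strain difference of Opalin in control mice ran from -0.174 to 0.00583. In risperidone mice the strain difference ran from -0.175 to 0.095 for Cldn11, -0.254 to 0.112 for Ugt8a, -0.0308 to 0.189 for Opalin and -0.308 to 0.0558 for Mag. The Mog slopes of the Mobp and Opalin probe sets of lowest mean ran from -0.0477 to 0.677 and from -0.136 to 0.0493. That Opalin probe set lies near the lowest levels on the array, which limits what it can show.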

Other observations

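A probe set that names both Mbp and Ctbp2, and so is no member, deviated with the Mbp probe sets (r = 0.85 and 0.88 over 16 arrays). Its level was 11.19 to 11.65 in DBA/2J risperidone, 11.33 to 11.44 in DBA/2J control, 11.40 to 11.69 in A/J risperidone and 11.21 to 11.72 in A/J control arrays, and it differed by -0.11 ± 0.11 between strains in control mice (adjusted p = 0.659). Of the Schwann cell list, Pmp2 averaged 3.70 and Ncmap 5.26 over all arrays, and Egr2, which neurons also use, averaged 8.26.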
